A study of Homo sapiens with 6 samples.

Results

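The proteasome genes described here are the 3 immunoproteasome catalytic subunits PSMB9, PSMB10 and PSMB8, the 3 constitutive catalytic subunits PSMB6, PSMB7 and PSMB5, the activator subunits PSME1, PSME2 and PSME3, and the assembly factor POMP. They were chosen by gene symbol, and all 10 were found among the 17187 genes of the deposited table. The cells were HT-1080, an established human fibrosarcoma line labelled wild type. One group of 3 libraries came from cells given PBS (control), and the other group of 3 from cells given recombinant interferon gamma (IFNg, 10 ng/ml, 8 h). Total RNA was depleted of ribosomal RNA before sequencing. Nothing in the labels states whether the libraries within a group are separate cultures, so p-values measure the spread between these libraries, which may be technical.

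The proteasome degrades proteins tagged with ubiquitin inside a barrel of stacked rings, the 20S core. In each beta ring only 3 subunits cut peptides, and their positions are called beta 1 (PSMB6), beta 2 (PSMB7) and beta 5 (PSMB5). Newly built cores can take up PSMB9 in place of PSMB6, PSMB10 in place of PSMB7 and PSMB8 in place of PSMB5, which makes an immunoproteasome. This form is standard in many blood cells and inducible by IFNg in other cells, and it is known for producing peptides that suit MHC class I molecules.

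Values are normalised read counts, that is, whole reads divided by 1 size factor per library and not by gene length. Libraries held 59556948 to 83501954 reads in genes, and 1 read was worth 0.835 to 1.16. Each member had at least 407 reads in every library, the lowest being PSMB9 in control 3. Along the second principal component of 11701 genes (17.2% of variance), the libraries numbered 3 lay at 24.3 (control) and 16.2 (IFNg) and the other 4 between -12.5 and -7.58. Of 8 mesenchymal markers 7 were abundant, while S100A4 lay between 19.5 and 83.5. PLAU was lower in IFNg (log2 difference -0.53 ± 0.10, limma adjusted p = 0.00709). Of 5 listed epithelial markers, EPCAM and CDH1 were not in the table and KRT19 lay between 0 and 26.9. The keratins KRT8 and KRT18 were abundant in both groups. Their means were 16193 and 10710 in control and 19916 and 11344 in IFNg (limma adjusted p of 0.198 and 0.842). The part of these markers in the results was not tested. Of 14 listed markers of blood cells 9 were in the table, with a summed level of 18410 to 28945 in control and 17349 to 26113 in IFNg. CD68 and LCP1 held most of that sum in each library. PTPRC, which marks blood cells in general, lay between 0 and 44.6, and CORO1A between 92 and 279. CD3E was at 0 in all 3 control libraries and at 0, 10.3 and 25.5 in IFNg 1, 2 and 3. In bulk RNA, more expressing cells and more RNA per cell cannot be told apart.

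The stretches of promoter sequence shown next let the induced and the constitutive genes be compared. They come from RefSeq (GRCh38.p14), which had a window of 250 bases before and 50 bases after a start for 8 of the 10 members (not for PSMB6 and PSMB7). The core of the interferon-stimulated response element, which transcription factors of the IRF family bind, was searched as TTTCNNTTTC on both strands, where it reads GAAANNGAAA on the other strand. PSMB8 and PSMB5 had 2 windows each, and the other members with a window had 1. The element core was present in 3.57% of all 35116 windows of the same length, a share of windows and not of genes. Among the members it was found in 1 window each of PSMB8, PSMB10, PSME1 and PSME2, all of which rose, and not in those of PSMB9, PSMB5, PSME3 or POMP. For the 4 genes, 30 bases around the match are given 5′ to 3′ on the strand of the gene, with the match in capitals, followed by the neighbour of PSMB9, TAP1, which had a pair of overlapping matches.
PSMB8 (second start, chr6:32844032-32844061, minus strand): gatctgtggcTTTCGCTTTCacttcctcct
PSMB10 (chr16:67936852-67936881, minus strand): gggtaaaggcGAAAGCGAAAgcaggaagta
PSME1 (chr14:24136189-24136218, plus strand): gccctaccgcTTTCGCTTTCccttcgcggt
PSME2 (chr14:24146619-24146648, minus strand): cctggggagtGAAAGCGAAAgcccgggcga
TAP1 (chr6:32853816-32853845, minus strand): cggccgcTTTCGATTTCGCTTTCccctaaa

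Counted from the start of the transcript as base 1, with -1 just before it, the match spanned bases -4 to 6 in PSMB8, -21 to -12 in PSMB10, 6 to 15 in PSME1 and -28 to -19 in PSME2. The PSMB8 match belonged to the more downstream of 2 starts. In TAP1 the matches spanned -134 to -119 of the more upstream of 2 starts. TAP1 is read on the strand opposite to PSMB9, and this stretch ends at chr6:32853845. The PSMB9 window begins at chr6:32853942, so the TAP1 matches lie upstream of PSMB9 but outside the bases searched for it. PSMB9 and PSMB5 are shown as the 250 bases before the start, PSMB9 because it rose most and held no match, and PSMB5 (the more upstream of 2 starts) as a constitutive gene for comparison.
PSMB9 (chr6:32853942-32854191, plus strand): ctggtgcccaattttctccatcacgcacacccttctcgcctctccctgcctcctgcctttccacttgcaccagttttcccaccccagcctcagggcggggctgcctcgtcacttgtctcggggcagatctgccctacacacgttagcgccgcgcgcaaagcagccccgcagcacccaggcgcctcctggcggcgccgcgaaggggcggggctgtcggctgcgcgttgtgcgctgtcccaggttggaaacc
PSMB5 (chr14:23035221-23035470, minus strand): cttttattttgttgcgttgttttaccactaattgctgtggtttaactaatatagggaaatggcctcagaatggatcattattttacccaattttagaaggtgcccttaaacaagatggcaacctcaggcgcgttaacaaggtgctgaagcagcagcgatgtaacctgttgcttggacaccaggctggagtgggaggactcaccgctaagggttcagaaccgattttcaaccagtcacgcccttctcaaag

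The gamma-activated site, an element of promoters that respond to IFNg, was searched as TTCNNNGAA, a pattern that reads the same on both strands, and was present in 7.66% of the windows. PSMB8 had a match at -65 to -57 of the downstream start, PSMB5 had a match at -158 to -150 and one at -15 to -7 of its downstream start, and PSME3 one at -230 to -222. PSMB9, PSMB10, PSME1, PSME2 and POMP had none in these windows. The neighbour TAP1 had a match at -189 to -181 of its more downstream start. A match is a description of letters and was not tested as a binding site.

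IFNg raised all 3 immunosubunits, while none of the 3 constitutive catalytic subunits passed the test. In limma over 15546 genes, 5 of the 10 members were higher and 0 lower at an adjusted p under 0.05. Over all genes 4.32% were called, 3.27% as higher. edgeR and DESeq2 on the recovered reads gave the same counts of 5 and 0, and at an unadjusted p under 0.05 limma had 6 higher and 0 lower. The share of all genes at an unadjusted p under 0.05 is not given here. Counts at that threshold, for the members and for the lists below, are therefore descriptions only. In 6 of the 10 members every IFNg library was above every control library, against 10.7% of all genes, and in 0 of them was every IFNg library below control, against 9.28%. The median log2 difference was 0.76 over the members and -0.01 over all genes.

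**Figure D1:**
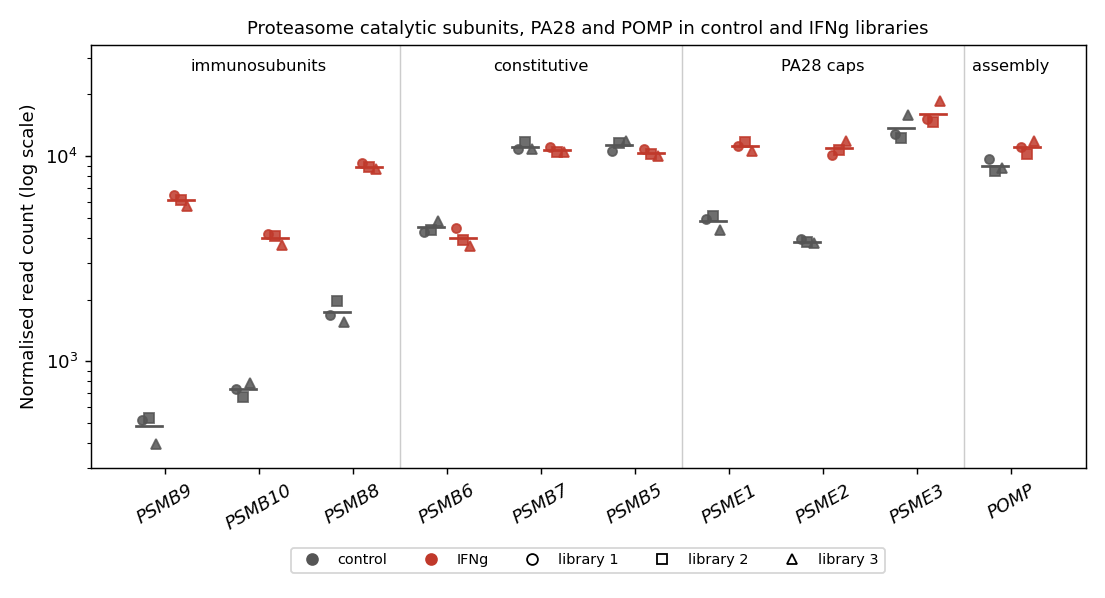
Normalised read count (y axis, log scale) of the 10 genes in each control (grey) and IFNg (red) library, with marker shapes for the library number and horizontal bars for the group mean (n = 3). The IFNg points of PSMB9, PSMB10, PSMB8, PSME1 and PSME2 lie clear above control, those of PSMB6, PSMB7 and PSMB5 overlap control, and PSME3 is highest in the libraries numbered 3 of both groups.

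PSMB9 (also LMP2) is the beta 1 immunosubunit, which largely replaces caspase-like cutting after acidic residues by cutting after hydrophobic ones. It was at 519.5, 528 and 396 in control 1, 2 and 3 and at 6475, 6087 and 5690 in IFNg 1, 2 and 3. The lowest value was that of control 3, and the groups were far apart, with means of 481 ± 73.7 and 6084 ± 393 (SD, n = 3). The log2 difference was 3.67 ± 0.14 (SE; limma adjusted p = 1.12e-08), a 12.6-fold ratio of means, and it ranked 70 by size among the 509 genes called higher.

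PSMB10 (also MECL-1), the beta 2 immunosubunit with trypsin-like activity, was at 731, 672 and 787 in control and at 4183, 4074 and 3708 in IFNg. The lowest IFNg library, number 3, was still well above the highest control, which was also number 3. PSMB10 rose by 2.45 ± 0.13 on the log2 scale (limma adjusted p = 1.25e-07), and its mean in IFNg was 5.46 times that in control.

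PSMB8 (also LMP7), the beta 5 immunosubunit with chymotrypsin-like activity, was the most abundant of the 3 before treatment, at 1690, 1969 and 1557. In IFNg it was at 9253, 8809 and 8626, with a coefficient of variation of 3.62% against 12.1% in control. Its log2 difference was 2.36 ± 0.11 (limma adjusted p = 4.72e-08), a 5.12-fold ratio of means. An antisense gene, PSMB8-AS1, overlaps PSMB8 and is not in the table, and although the library kit was stranded, the strand setting of the counting is not stated in the labels, so reads of the overlap cannot be assigned.

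Of the 3 immunosubunits, PSMB9 had the steepest response. Its ratio to PSMB8 was 0.307, 0.268 and 0.254 in control and 0.700, 0.691 and 0.660 in IFNg, and its ratio to PSMB10 was 0.711, 0.785 and 0.503 in control and 1.55, 1.49 and 1.53 in IFNg. Neither ratio overlapped between groups, with changes of 2.48-fold and 2.33-fold, each with an exact permutation p = 0.1 (two-sided; 0.15 adjusted over the 3 ratios), the smallest p that 3 against 3 libraries can give. The ratio of PSMB10 to PSMB8 overlapped between groups, at 0.341 to 0.506 in control and 0.430 to 0.462 in IFNg (exact permutation p = 0.8). These 3 ratios were added after the data were seen.

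The constitutive subunits had slightly lower means in IFNg, with libraries of the 2 groups overlapping. PSMB5 (beta 5, chymotrypsin-like) was at 10630, 11541 and 11794 in control and 10887, 10268 and 9984 in IFNg. PSMB6 (beta 1, caspase-like) was at 4272, 4375 and 4834 in control and 4449, 3891 and 3645 in IFNg. PSMB7 (beta 2, trypsin-like) was at 10801, 11727 and 10847 in control and 11059, 10540 and 10450 in IFNg. In each of these genes IFNg 1 lay inside the control range and the groups overlapped. LOC100129034, with means of 3636 in control and 3211 in IFNg, overlaps PSMB7, and how reads of that overlap were assigned is not known.

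The limma log2 differences were -0.12 ± 0.09 for PSMB5 (adjusted p = 0.565), -0.17 ± 0.11 for PSMB6 (0.514) and -0.06 ± 0.08 for PSMB7 (0.826). Their 95% intervals, written as a change in level, ran from -19.6% to 4.6%, from -24.7% to 4.62% and from -15.4% to 9.12%. A decrease of up to about these lower bounds is therefore not excluded by the fit, while a change of the size seen in PSMB8, PSMB9 or PSMB10 lies outside all 3 intervals. All 3 differences were below 0 in each of the 18 alternative fits.

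Within each library, the ratio of an immunosubunit to the subunit it replaces does not depend on library scaling. PSMB9 to PSMB6 was 0.122, 0.121 and 0.082 in control and 1.46, 1.56 and 1.56 in IFNg. PSMB8 to PSMB5 was 0.159, 0.171 and 0.132 in control and 0.850, 0.858 and 0.864 in IFNg. PSMB10 to PSMB7 was 0.068, 0.057 and 0.073 in control and 0.378, 0.387 and 0.355 in IFNg.

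The ratio rose 14.4-fold at beta 1, 5.69-fold at beta 2 and 5.6-fold at beta 5. In log2 terms these were 3.84, 2.51 and 2.49, against SDs between libraries of 0.33, 0.17 and 0.19 in control and 0.06, 0.06 and 0.01 in IFNg. No pair overlapped between groups. Each had an exact permutation p = 0.1 (two-sided, 0.1 adjusted over the 3 pairs), which 3 against 3 libraries cannot go below.

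**Figure D2:**
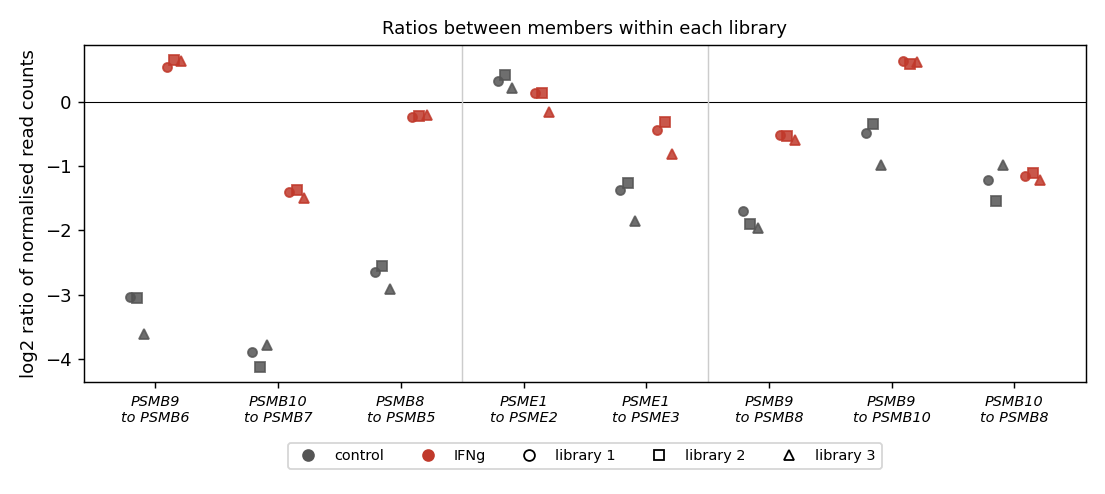
Log2 ratio of normalised read counts within each library (y axis) for 8 pairs of members, control in grey and IFNg in red, with marker shapes for the library number. The 3 catalytic pairs at the left rise by 3.84, 2.51 and 2.49, while PSMB10 to PSMB8 at the right overlaps between groups.

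To compare levels between genes, counts were divided by the length of 1 principal transcript per gene (GENCODE 29), from 782 bases for PSMB9 to 1294 for PSMB5. Per kb of transcript, control cells had PSMB7 at 11352 ± 532, PSMB5 at 8749 ± 473 and PSMB6 at 5274 ± 351, all above PSMB8 at 1547 ± 187, PSMB9 at 615 ± 94.3 and PSMB10 at 599 ± 47.3. By this length PSMB9 and PSMB10 did not differ beyond their spread in control. In IFNg the order was PSMB7 (10901 ± 336), PSMB5 (8021 ± 357), PSMB8 (7915 ± 287), PSMB9 (7780 ± 502), PSMB6 (4689 ± 483) and PSMB10 (3274 ± 204), and the neighbours PSMB5, PSMB8 and PSMB9 did not differ beyond their spread. Per kb of coding length PSMB5 (13106 ± 583) and PSMB7 (12809 ± 394) came closest to each other in IFNg, ahead of PSMB8 (10705 ± 388) and PSMB9 (9218 ± 595). By coding length the control libraries of PSMB9 (729 ± 112) and PSMB10 (888 ± 70) did not overlap.

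The share of the immunosubunit in its pair, per kb of transcript, was a description with no test. At beta 1 it went from 11.7%, 11.6% and 8.2% in control to 61.3%, 63% and 63% in IFNg, so PSMB9 transcripts outnumbered PSMB6 transcripts there. At beta 5 it went from 15.5%, 16.4% and 13.2% to 49.5%, 49.7% and 49.9%, close to even. At beta 2 it went from 5.16%, 4.41% and 5.52% to 23.3%, 23.7% and 22.2%, so PSMB7 still made up most of the transcripts. By coding length the IFNg means were 62.5%, 45% and 27.5% at beta 1, beta 5 and beta 2, in the same order.

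Summed per kb of transcript, the 3 immunosubunits went from 2762 ± 220.2 to 18969 ± 976 and the 3 constitutive subunits from 25376 ± 978 to 23611 ± 1172. The sum of all 6 was 27019, 28999 and 28395 in control and 44866, 42223 and 40652 in IFNg. Transcripts of catalytic subunits were thus 1.51 times as abundant after IFNg, with no overlap between groups, and the immunosubunits made up 44.5% ± 0.335 of them against 9.82% ± 0.761 in control.

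**Figure D3:**
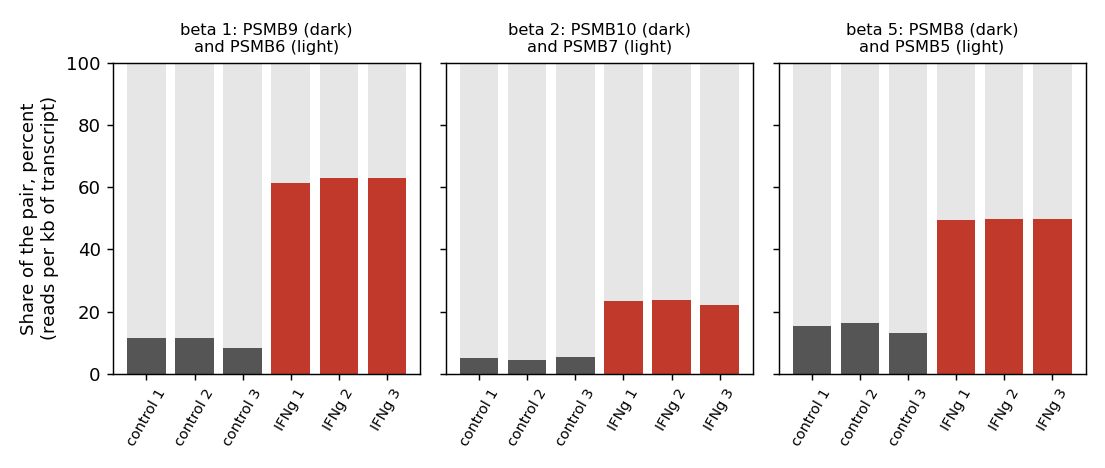
Share (percent, y axis from 0) of the immunosubunit (dark) and of its constitutive counterpart (light) in the reads per kb of transcript of each pair, for each control (grey) and IFNg (red) library. In IFNg the immunosubunit share is near 62.4% at beta 1, 23.1% at beta 2 and 49.7% at beta 5.

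PA28 caps open the gate of the core without needing ubiquitin. PSME1 (PA28 alpha) and PSME2 (PA28 beta) form one mixed ring in the cytoplasm that is linked to MHC class I peptide supply, whereas PSME3 (PA28 gamma) forms a ring of its own in the nucleus. PSME1 was at 4953, 5095 and 4380 in control and 11198, 11755 and 10575 in IFNg. PSME2 was at 3941, 3802 and 3754 in control and 10150, 10747 and 11855 in IFNg. For both genes every IFNg library was above every control library.

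PSME1 rose by 1.22 ± 0.10 on the log2 scale (limma adjusted p = 5.64e-06), a 2.32-fold ratio of means. PSME2 rose by 1.51 ± 0.09 (limma adjusted p = 7.29e-07), a 2.85-fold ratio. The PSME1 to PSME2 ratio was 1.26, 1.34 and 1.17 in control and 1.1, 1.09 and 0.892 in IFNg. The highest IFNg ratio was below the lowest control ratio, with a log2 difference of -0.29 (exact permutation p = 0.1, two-sided, 0.1 adjusted over 2 ratios, the smallest possible) that was -0.19 without IFNg 3, where PSME2 was highest and PSME1 lowest. RefSeq names 6 pseudogenes of PSME2, 0 of them in the table, and the labels do not state how multi-mapping reads were treated, so PSME2 levels are uncertain to that extent. The same holds for PSMB7 and POMP, each with 1 named pseudogene (PSMB7P1 and POMPP1) that is not in the table.

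PSME3 did not pass the test. It was at 12859, 12266 and 15917 in control and 15215, 14618 and 18552 in IFNg, so control 3 exceeded IFNg 1 and 2 and the groups overlapped. In both groups the library numbered 3 was the highest. The log2 difference was 0.24 ± 0.12 (limma adjusted p = 0.391). A single library moved this difference, to 0.13 without IFNg 3, 0.16 without control 2 and 0.35 without control 3 (limma adjusted p of 0.713, 0.799 and 0.0622). It was 0.25 without both libraries numbered 3, with an adjusted p of 0.0539, and adjusted p ranged from 0.0503 to 0.799 over the 18 alternative fits.

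The PSME1 to PSME3 ratio, which sets the inducible cap beside the nuclear one, was 0.385, 0.415 and 0.275 in control and 0.736, 0.804 and 0.570 in IFNg. It changed 1.97-fold with no overlap (exact permutation p = 0.1, two-sided, 0.1 adjusted over 2 ratios).

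POMP, a chaperone that helps the beta rings of the core form and is used up in doing so, was at 9716, 8423 and 8709 in control and 11035, 10284 and 11832 in IFNg. Its groups did not overlap. The log2 difference of 0.30 ± 0.09 did not pass (limma adjusted p = 0.113), and its 95% interval, written as a change in level, ran from 7.02% to 42.5%. The PSMB8, PSMB9 and PSMB10 differences were all larger than the upper end of that interval.

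The other genes of the proteasome are described from lists chosen with earlier results of these data known. Of 11 other 20S core subunits, 3 were higher and 0 lower by limma, with a median log2 difference of 0.21, a range of -0.13 to 0.60 and 5 higher and 0 lower at an unadjusted p under 0.05. DESeq2 called 3 higher and edgeR 2, and neither called a subunit lower. The 3 were alpha-ring subunits, which form the outer rings and the gate of the core.

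PSMA3 was at 6545, 5242 and 5805 in control and 7988, 8556 and 10117 in IFNg (log2 difference 0.60 ± 0.12, limma adjusted p = 0.0105). PSMA4 was at 8786, 7880 and 8871 in control and 11160, 11039 and 13081 in IFNg (0.46 ± 0.10, 0.0184). PSMA6 was at 10651, 10068 and 9743 in control and 12657, 12267 and 14385 in IFNg (0.37 ± 0.09, 0.0466). All 3 had every IFNg library above every control library, as did 10.7% of all genes and some uncalled core subunits. All 3 were highest in IFNg 3. Their calls were lost without control 2 (limma adjusted p of 0.0718, 0.118 and 0.191) and without a variance trend (0.157, 0.169 and 0.232). Without any 1 of the IFNg libraries only the PSMA3 call was kept, and PSMA6 was lost without control 1 as well. Without both libraries numbered 3 the 3 calls were kept (0.00857, 0.00553 and 0.0449), in a fit that called 9.53% of all genes.

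None of the 21 genes listed under the 19S cap, which recognises ubiquitin and unfolds substrates, was called by limma, edgeR or DESeq2. At an unadjusted p under 0.05 each of these tools had 0 higher and 2 lower, and the median log2 difference was -0.01 with a range of -0.36 to 0.18. A further 7 measurable genes were listed under assembly and other caps, namely PSMG1 to PSMG4, PSME4, PSMF1 and PAAF1. Of these, limma, edgeR and DESeq2 called 0, with 1 higher at an unadjusted p under 0.05 in each. PSMB11, the beta 5 subunit of the thymus proteasome, had between 0 and 17.5 in all libraries and was not tested.

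**Figure D4:**
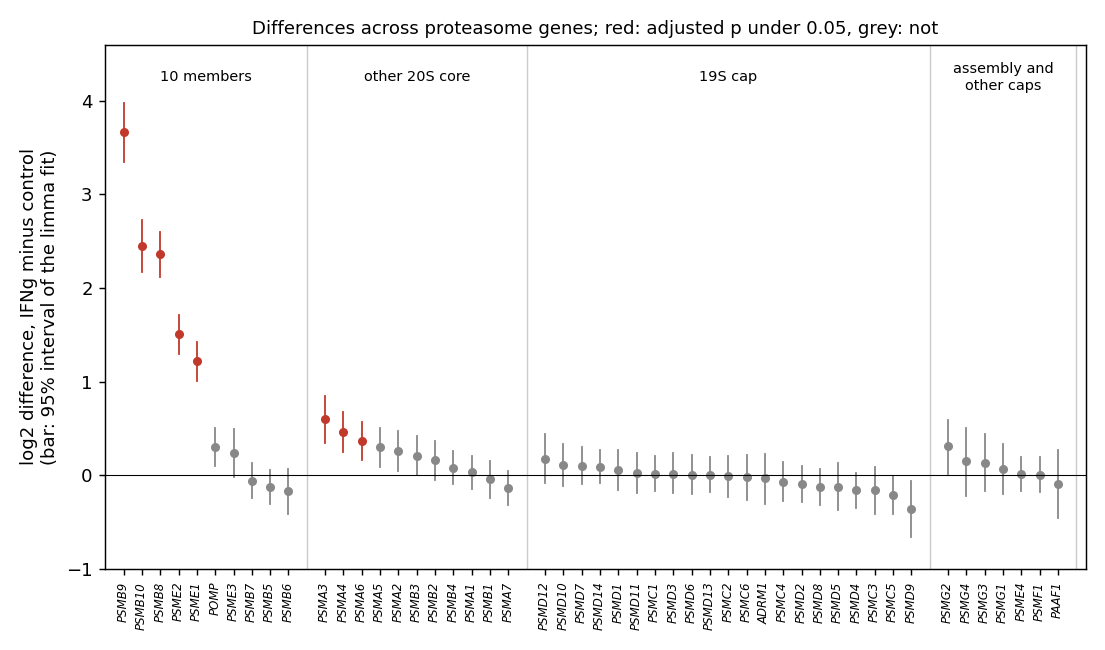
Log2 difference, IFNg minus control, with its 95% interval from the limma fit (y axis) for the 10 members, 11 other 20S core subunits, 21 genes listed under the 19S cap and 7 assembly and other cap genes (x axis), red where the adjusted p was under 0.05. PSMB9, PSMB10, PSMB8, PSME2 and PSME1 stand between 1.22 and 3.67, above the 3 called alpha subunits at 0.37 to 0.60, and no gene listed under the 19S cap is called.

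Of 8 listed regulators of proteasome genes, 4 were higher and 0 lower. IRF1, a transcription factor that acts at immunosubunit promoters, was at 395, 482 and 995 in control and 26296, 28118 and 30650 in IFNg. NLRC5, the transactivator of MHC class I genes, rose by 3.51 ± 0.11 on the log2 scale (limma adjusted p = 1.67e-09). NFE2L1, which drives constitutive proteasome genes when proteasome activity is short, differed by -0.10 ± 0.09 (0.659). Its relative NFE2L3 rose by 0.41 ± 0.09 (0.0238), a call lost without a variance trend (0.16) and when any 1 library other than control 3 was left out (up to 0.121).

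Downstream of the proteasome, 7 of 10 genes of the route of peptides to MHC class I were higher and 0 lower. TAP1, which pumps peptides into the endoplasmic reticulum and neighbours PSMB8 and PSMB9, rose by 4.54 ± 0.12 on the log2 scale (limma adjusted p = 6.08e-10), more than any member. TAP2, its partner and the other neighbour of PSMB8, rose by 1.62 ± 0.09 (1.45e-07). TAPBPL (1.92 ± 0.19), the peptide-trimming enzyme ERAP2 (1.17 ± 0.10) and the MHC class I light chain B2M (1.09 ± 0.09) also rose.

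Of the neighbours of the other members, those that could be tested did not pass. The genes beside PSMB10, the protease gene CTRL and the plasma enzyme gene LCAT, had mean values of 47.4 and 155 in control and 60.3 and 125 in IFNg and did not pass. EMC9, which lies between PSME1 and PSME2, had mean values of 411 in control and 346 in IFNg, with overlapping groups. RNF31, on the other side of PSME2, had 4071 in control and 5173 in IFNg (log2 difference 0.35 ± 0.10, limma adjusted p = 0.0868).

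The genes whose pattern over the 6 libraries was most like that of an immunosubunit were ranked by the root mean square difference of mean-centred log2 values, among 11691 genes with a mean of at least 100. Nearest to PSMB8 were the antibody receptor and ubiquitin ligase TRIM21 (0.073), IFI35 (0.091) and the ubiquitin-like modifier ISG15 (0.122). Nearest to PSMB10 were ISG15 (0.095), PARP12 (0.127) and IFI35 (0.134). PSMB9 was closest to the protocadherin PCDH17 (0.124), the ADP-ribosyltransferase PARP14 (0.156) and the fatty acid ligase ACSL5 (0.209). PCDH17 was at 16.5 ± 4.13 in control and 215 ± 10.8 in IFNg, and ACSL5 at 46.6 ± 1.37 and 494 ± 43.5. Both reached a mean of 100 only through the IFNg libraries. TRIM21 was at 1339 ± 89 in control and 6841 ± 275 in IFNg, with a log2 difference of 2.35 against 2.36 for PSMB8. Its level was not compared with that of PSMB8, because these counts are not divided by gene length. With 3 libraries per group this likeness mostly reflects the size of the difference between groups.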

How the data were processed

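Total RNA of 6 HT-1080 libraries, 3 per group, was sequenced as paired ends of 50 cycles, per the labels. Per the submitters' processing notes, the tools included TopHat2 2.0.13, Cuffdiff 2.2.1, Cufflinks and FastQC 0.11.3, and the build was hg19 (GRCh37), without saying which tool made the table. The deposited signal, whose name says RPKM, was in every library 100% whole multiples of 1 step (tolerance 0.001 reads), so it is a count of whole reads over 1 size factor per library, equal to a median-of-ratios factor. Which program counted the reads, and its strand setting, is not given in the sources used here. limma 3.58.1 (R 4.3.3, variance trend, two-sided, Benjamini-Hochberg at 0.05) was fitted to log2(value + 1) over the 15546 genes that reached 0.5 in 3 or more libraries (1641 left out). edgeR 4.0.16 (quasi-likelihood, TMM) and DESeq2 1.42.0 were run on the recovered reads as alternatives. Ratios were tested by exact permutation of libraries. The limma and edgeR steps were tested on simulated data. Members and gene lists were chosen with earlier results of these data known. Named genes are the members, at most 5 called genes per list with the largest difference, gene neighbours and the 3 genes nearest in pattern to each immunosubunit. One called regulator is not reported here. NFE2L1, PSMA5, PSMD9 and the marker genes are named outside that rule and were chosen after their values were seen.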

Additional observations from a re-analysis of the deposited data

How the results depend on the processing

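The calls of PSMB8, PSMB9, PSMB10, PSME1 and PSME2 passed in all 18 alternative fits, with adjusted p up to 0.00674 (PSME1, limma without a variance trend), and PSMB5, PSMB6, PSMB7 and PSME3 passed in none. POMP passed with the replicate block in limma (0.30, adjusted p = 0.018) and in edgeR (0.027, added after the data were seen) and in no other fit. The numbers were not taken to pair libraries: same-numbered libraries correlated in their deviations from the group means at 0.069, 0.206 and 0.36 for numbers 1, 2 and 3 over 11701 genes, and control 1 and 2 each correlated best with another number. The block changed no other call among the members. The differences of the ratios (3.84, 2.51 and 2.49 for the catalytic pairs) are the same with the block by construction, and 3 pairs allow no p below 0.25.

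Over all genes, limma called 672 (509 higher, 163 lower). The numbers were 320, 279 and 41 without a variance trend, 1464, 915 and 549 with the replicate block, 1481, 882 and 599 without both libraries numbered 3, and 1415, 884 and 531 in edgeR with the block, while DESeq2 called 1048 with 339 lower. Leaving out 1 library gave 386 (without IFNg 1) to 1302 (without control 3), with 330 to 847 higher and 37 to 455 lower. Called other 20S core subunits numbered 0 without a variance trend or without control 2, 1 without each IFNg library, 2 without control 1, and 4 with the replicate block in limma, which added PSMA5 (adjusted p = 0.0401). Of the genes listed under the 19S cap, 1, PSMD9, was called lower without both libraries numbered 3.

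Leaving out 1 library moved the log2 ratio difference between 3.66 and 3.94 for PSMB9 to PSMB6, 2.41 and 2.58 for PSMB10 to PSMB7, 2.38 and 2.56 for PSMB8 to PSMB5, -0.34 and -0.19 for PSME1 to PSME2 and 0.80 and 1.12 for PSME1 to PSME3. PSMB10 to PSMB8, 0.09 with all libraries, ranged from -0.06 without control 2 to 0.22 without control 3. With coding length, immunosubunit shares in control and IFNg were 6.26% and 27.5% at beta 2, 12.8% and 45% at beta 5, and 44.1% over all positions in IFNg. With no length they were 6.18% and 27.2% at beta 2, 13.3% and 46.2% at beta 5, and in IFNg 60.4% at beta 1 and 43.1% over all positions. Levels per kb depend on the transcript assumed.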
